A study of Mus musculus with 16 samples.

Results

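Muscle stem cells from mice labelled p53KO were compared between 2 groups of 3 RNA libraries each, p53KO_3dai and p53KO, which are 6 of the 16 libraries of the study. Cells of both groups came from C57BL/6 mice aged from 2 to 3 months that carry the same genotype label, p53KO. They were released from muscle with collagenase and dispase and the sort kept those with CD34 and alpha-7 integrin at their surface and without CD31, CD11b, CD45 or Sca-1. The p53KO group was taken from hind limb muscles and the p53KO_3dai group from the tibialis anterior, the muscle at the front of the shin. The labels do not spell out 3dai. In work on muscle regeneration the letters usually stand for days after injury, but no injury is named in the labels, and the suffix and the muscle cannot be told apart. The labels do not say which part of Trp53 the knockout removes, whether it acts in all tissues, or whether replicates are separate animals or pools, so every p-value measures only the spread between these samples. The series title names a severe model of Duchenne muscular dystrophy, and no Dmd genotype is given for these libraries. The p53WT and p53WT_3dai groups (3 libraries each), of the same strain, age, sort and muscles, were used only to ask whether the difference depends on the genotype.

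Muscle stem cells, also called satellite cells, lie between the muscle fibre and its basement membrane and are mostly quiescent in adult muscle. After damage they leave quiescence, divide as myoblasts, and then either exit the cell cycle and fuse into fibres or return to the niche. Pax7 marks the stem cell state, Myf5 and Myod1 commit cells to muscle, and Myog drives terminal differentiation. p53 is a transcription factor that is stabilised by DNA damage and other stress and switches on genes of arrest and cell death, among them Cdkn1a, which codes the cyclin-dependent kinase inhibitor p21.

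Levels are FPKM, fragments scaled by transcript length and by mapped fragments, as the authors deposited them for 24341 genes in each library, and the sequencing depth behind them is unknown. Differences are p53KO_3dai minus p53KO on the log2(FPKM + 1) scale, which understates the change of genes with low values, with their standard error (SE) from limma. A gene is called, or said to have risen or fallen, where the p-value from limma, adjusted by Benjamini-Hochberg over the 11902 genes with at least 1 FPKM in 2 or more of the 6 libraries, is under 0.05. The 2 groups were far apart: log2 levels correlated at 0.62 to 0.706 between libraries of different groups. In each group 1 library stood apart from its replicates. p53KO replicate 3 correlated at 0.912 with each of the other two p53KO libraries, which correlated at 0.967 with each other. p53KO_3dai replicate 1 correlated at 0.921 and 0.927 with replicates 2 and 3, which correlated at 0.963. For some genes and lists that rest on these libraries, results are given with and without them. Exact zeros can be failed estimates, since 79 genes with a median over 20 FPKM in the 6 libraries are at 0 in at least 1 of them.

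Trp53, which the genotype label names, had a value above 0 in every library, and 1 value per gene does not show which part of the gene was read. It stood at 6.34, 12.2 and 7.17 FPKM in p53KO and at 41.3, 45.7 and 34.9 in p53KO_3dai (log2 difference 2.16, SE 0.22, adjusted p = 8.63e-07). The groups did not overlap, and the value says nothing about p53 protein. Of the genes of the sort, Itga7, which codes alpha-7 integrin, rose from 89.8, 86.3 and 81.1 to 181, 226 and 216 FPKM (log2 difference 1.26, SE 0.19, adjusted p = 4.95e-05), and Cd34 was at 76.5, 78.5 and 140.3 and 77.1, 44.4 and 61.1 and was not called (log2 difference -0.66, adjusted p = 0.0661). It was called lower without p53KO_3dai replicate 1 (log2 difference -0.85, adjusted p = 0.0346) and under median-of-ratios scaling (log2 difference -0.99, adjusted p = 0.00852). The genes of the negative markers were near or at 0: Pecam1 (CD31) reached at most 0.664 FPKM in the 6 libraries, Itgam (CD11b) 0.152 and Ptprc (CD45) 0.00898, while Ly6a (Sca-1) was at 0, 0.541 and 0 in p53KO and 0.593, 6.6 and 0 in p53KO_3dai.

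**Figure D1:**
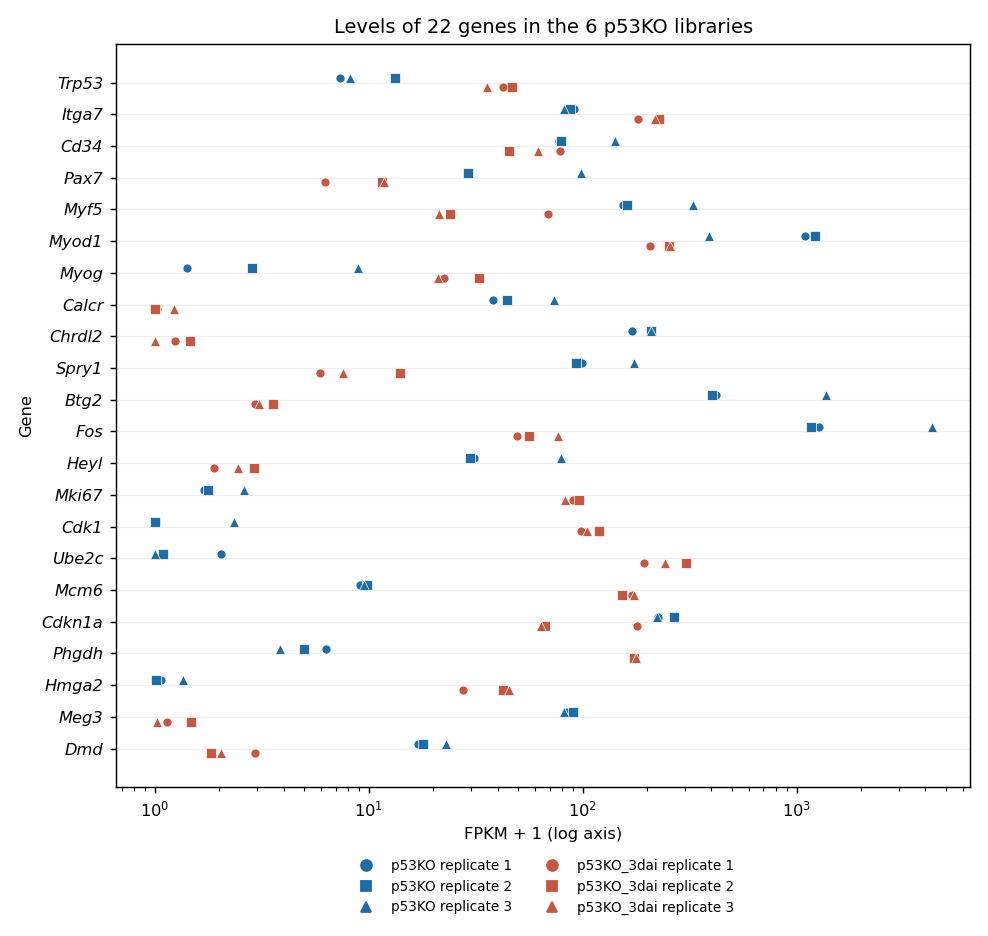
FPKM + 1 on a log axis (x) of 22 genes (y) in the 3 p53KO libraries (blue) and the 3 p53KO_3dai libraries (red), where each point is 1 library and the shape gives the replicate. Mki67, Cdk1, Ube2c and Mcm6 lie far to the right in p53KO_3dai, Calcr, Chrdl2, Btg2 and Meg3 far to the left, and Cdkn1a lies at 179 FPKM in p53KO_3dai replicate 1 against 65.7 and 62.6 in replicates 2 and 3.

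How much of the transcriptome differed? Of the 11902 genes tested, 6889 (57.9%) were called, 3982 higher (33.5%) and 2907 lower (24.4%) in p53KO_3dai. The median over all genes was 0.19. Under median-of-ratios scaling, which assumes that the middle gene does not change, the median moved to -0.08 and the calls to 3069 higher and 3654 lower, so a small difference has no fixed sign. Without p53KO_3dai replicate 1 the calls were 3754 higher (31.5%) and 3003 lower (25.2%), and without p53KO replicate 3 they were 3808 and 2794. With p53KO_3dai replicate 1 as the only library of its group 2866 genes were higher and 1767 lower. Because 57.9% of the genes were called, a list is described by its counts against these shares and by its median against 0.19. The lists hold named genes of a pathway or cell type, and genes of a list that did not pass the filter on low values are counted where the list is introduced. Genes that passed it only through the group in which they were high had to differ, so these counts are descriptions. The same holds for the p-values of such genes, which add nothing to the values given. Among them are genes listed at 0 in a whole group, such as Tk1, Ccnb1, Cdkn3, Tmem8c, Gm7325 and Nppc. Others, such as Plk1 and Brca1, were under 1 FPKM in every library of a group. Where groups are said not to overlap, this too only describes the values given, since the share over all genes is not given.

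**Figure D2:**
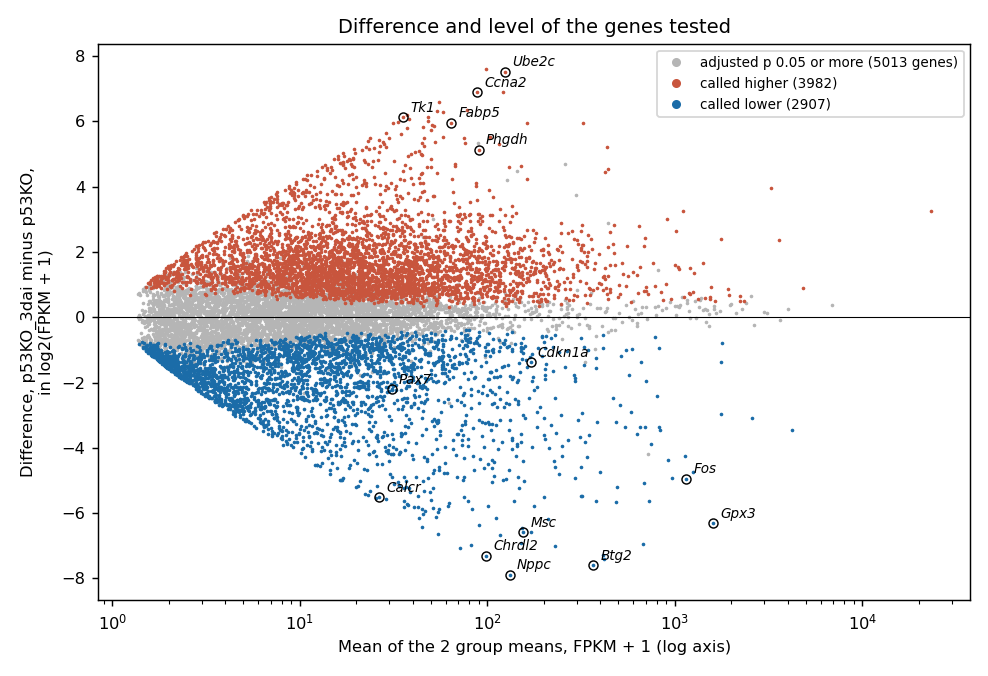
Difference between p53KO_3dai and p53KO in log2(FPKM + 1) (y) against the mean of the 2 group means in FPKM + 1 (x, log axis) for the 11902 genes tested, with called genes in red (3982 higher) and blue (2907 lower). Ube2c lies highest of the labelled genes at 7.53 and Nppc lowest at -7.89, while Pax7 lies at -2.20 and Cdkn1a at -1.38.

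The genes with the largest rises were genes of cell division, with few exceptions. Among the 12 largest, Ube2c, Ccna2, Top2a, Birc5, Cdk1, Anln, Cdca3, Tk1, Kif20a and Hells act in DNA replication, chromatin copying, mitosis or cytokinesis. Fabp5, a carrier of fatty acids, was also among them. Fabp5 stood at 3.58, 0.773 and 0 FPKM in p53KO and at 99.3, 137 and 140 in p53KO_3dai (log2 difference 5.96, SE 0.61, adjusted p = 9e-07). The 12 largest falls were more mixed. Nppc, the C-type natriuretic peptide, stood at 162, 188 and 437 FPKM in p53KO and is listed at 0 in all 3 p53KO_3dai libraries (adjusted p = 4.98e-09). Arl4d, a small GTPase, stood at 799.6, 1058 and 597 against 11.8, 1.89 and 2.72 (log2 difference -7.27, SE 0.43, adjusted p = 4.02e-09), and Cebpd, a transcription factor of acute inflammation, at 304, 246 and 819.8 against 5.99, 0.597 and 1.52 (log2 difference -7.02, SE 0.61, adjusted p = 1.85e-07). In these 3 genes every p53KO library was far above every p53KO_3dai library. Slc10a6, a transporter of sulfated steroids, fell from 117, 117 and 252 to 0.698, 0.0291 and 0 (log2 difference -6.98, SE 0.51, adjusted p = 3.26e-08), and Fxyd1, which regulates the sodium pump, from 102, 96.2 and 123 to 0, 0 and 0.237 (log2 difference -6.65, SE 0.66, adjusted p = 6.89e-07). 

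What happened to the myogenic programme? Of 20 Pax and myogenic factors 19 passed the filter, 4 rose and 8 fell (2 rose without p53KO replicate 1 or 2; median -0.76, or 0.00 with p53KO_3dai replicate 1 alone in its group). Pax7 stood at 27.7, 28.2 and 97.1 FPKM in p53KO and at 5.22, 10.5 and 10.8 in p53KO_3dai (log2 difference -2.20, SE 0.51, adjusted p = 0.00165). The groups did not overlap, and p53KO replicate 3 was far above the other p53KO libraries. Myf5 was at 153, 159.7 and 328 and 67.5, 23 and 20.3 (log2 difference -2.62, SE 0.38, adjusted p = 3.14e-05), and the highest p53KO_3dai value was again that of replicate 1. Myod1 was high in both groups, at 1094, 1218 and 390.2 FPKM in p53KO and at 205, 253 and 255 in p53KO_3dai (log2 difference -1.76, SE 0.30, adjusted p = 0.000154). The p53KO libraries were thus the higher ones, with p53KO replicate 3 the closest of the 3 to the p53KO_3dai libraries. Myog rose from 0.41, 1.86 and 7.91 to 21.4, 31.6 and 20.1 (log2 difference 2.91, SE 0.83, adjusted p = 0.00696), without overlap. Regulators that hold back differentiation fell too: Msc, which codes musculin, stood at 276, 322 and 315 against 14.8, 0.996 and 0 (log2 difference -6.59, SE 0.65, adjusted p = 6.14e-07), and Id3, an inhibitor of MyoD partners, at 967, 1013 and 2189 against 158, 62.5 and 64.4 (log2 difference -3.89, SE 0.40, adjusted p = 9.64e-07). Tcf12, a partner of MyoD, rose by 0.86. Meox2, a homeobox gene of muscle, fell by 2.63. 

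Genes known for the quiescent state were nearly all lower. Of 28 listed genes 28 passed the filter, 24 fell and 1 rose (median -2.84). Chrdl2, a secreted BMP antagonist, stood at 169, 207 and 208 FPKM in p53KO and at 0.25, 0.466 and 0 in p53KO_3dai (log2 difference -7.31, SE 0.27, adjusted p = 8.86e-11). Calcr, the calcitonin receptor that keeps satellite cells in their niche, stood at 36.9, 43.1 and 72.2 and 0.0195, 0 and 0.232 (log2 difference -5.52, SE 0.34, adjusted p = 5.19e-09). Btg2, an antiproliferative gene, stood at 417, 400.5 and 1370.4 and 1.93, 2.58 and 2.06 (log2 difference -7.59, SE 0.52, adjusted p = 1.46e-08). None of these overlapped between groups, and Btg2 and Calcr were highest in p53KO replicate 3. Btg2 is also counted among the immediate early genes and the p53 targets of arrest, and Hey1, Heyl and Foxo1 recur in the Notch and FoxO lists. Others recur too, among them Spry1, Fgfr4, Cdkn1b and Dag1. Tek and Rgs5, which fell, are also in the endothelial and pericyte marker lists. The part of those cell types in their fall was not tested. Spry1, an inhibitor of FGF signalling needed for the return to quiescence, was at 97.8, 91.6 and 172 against 4.91, 13 and 6.58 (log2 difference -3.77, SE 0.41, adjusted p = 2.02e-06), and Chodl, a lectin-like membrane protein, at 255, 266 and 491 against 6.78, 4.08 and 0 (log2 difference -6.57, SE 0.58, adjusted p = 2.01e-07). Vcam1, an adhesion molecule of satellite cells, fell less, from 209.9, 240.2 and 162 to 131, 94.5 and 107 (log2 difference -0.87, SE 0.17, adjusted p = 0.000468). The gene that rose was Sdc3, a syndecan, by 1.00, while its relative Sdc4 fell by 3.35. Cdkn1c, Pdk4 and Cd34 were not called. Of 11 muscle stem cell markers, a list that overlaps the quiescence list, 1 rose (Itga7) and 8 fell (median -2.26). Cdh15, M-cadherin, was one of the other two, at 51.7, 56.9 and 122 and 46.4, 62.3 and 52.5 (adjusted p = 0.277). 

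Most genes of the Notch pathway, whose activity keeps satellite cells quiescent, fell. Of 25 genes 22 passed the filter, 4 rose and 14 fell (median -0.97); 2 rose without p53KO replicate 2, and 8 fell with p53KO_3dai replicate 1 alone in its group. Among targets, Heyl stood at 30.1, 28.8 and 77.9 FPKM in p53KO and at 0.9, 1.92 and 1.45 in p53KO_3dai (log2 difference -4.13, SE 0.37, adjusted p = 2.41e-07), and Hey1 at 61, 44.8 and 53.5 and 4.18, 3.01 and 3.03 (log2 difference -3.62, SE 0.41, adjusted p = 2.43e-06). Hes1 was at 54.5, 35.7 and 103 against 8.24, 1.21 and 9.05 (log2 difference -3.34, SE 0.54, adjusted p = 8.65e-05). The receptor Notch3 fell from 88.5, 74.6 and 147 to 8.2, 8.48 and 5.46 (log2 difference -3.60, SE 0.29, adjusted p = 7.11e-08). These 4 did not overlap between groups. Notch3 is also a marker of pericytes, whose markers fell too, and their part in its fall was not tested. Of its ligands, Jag2 rose from 0.57, 0.609 and 1.26 to 6.12, 10.6 and 9.78 (log2 difference 2.43, SE 0.29, adjusted p = 3.89e-06), and Dll1 from 5.87, 4.13 and 14 to 19.9, 9.02 and 14.5 (log2 difference 0.88, SE 0.34, adjusted p = 0.0398), where the groups overlapped. Hes6, a Hes protein that favours differentiation rather than holding it back, rose from 5.84, 3.33 and 13.9 to 34.2, 62.6 and 63.5 (log2 difference 2.79, SE 0.47, adjusted p = 0.000138). Dll1 was not called without p53KO replicates 1 or 2 or p53KO_3dai replicates 1 or 3 (adjusted p = 0.12, 0.201, 0.158 and 0.0912) or under median-of-ratios scaling. The protease gene Adam10 also lost the call without p53KO_3dai replicate 1, which left 2 genes of the list higher.

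Mitotic genes rose almost without exception. Of 54 listed genes 54 passed the filter and 53 rose (median 4.94, against 0.19 over all genes); the other gene, Pttg1, securin, stood at 25.3, 24.9 and 34.8 FPKM in p53KO and at 25.7, 11.6 and 29.6 in p53KO_3dai (adjusted p = 0.367). Ube2c, the ubiquitin-conjugating enzyme of the anaphase-promoting complex, stood at 1.03, 0.0933 and 0 in p53KO and 192, 302 and 241 in p53KO_3dai (log2 difference 7.53, SE 0.43, adjusted p = 2.85e-09). Mki67, which codes the proliferation antigen Ki-67, stood at 0.69, 0.782 and 1.6 and 89, 95 and 82.1 (log2 difference 5.49, SE 0.30, adjusted p = 1.7e-09), and Plk1, a mitotic kinase, at 0.409, 0 and 0 and 54.1, 60.3 and 51.7 (log2 difference 5.65, SE 0.27, adjusted p = 5.91e-10). In p53KO these genes were at or near 0, and every p53KO_3dai library was above every p53KO library. They passed the filter only through p53KO_3dai. In the mean log2 level of the list, p53KO_3dai replicate 1 was slightly below replicates 2 and 3. The levels were 0.94, 0.83 and 1.03 in p53KO and 5.57, 5.79 and 5.79 in p53KO_3dai. Cdk1, the kinase of mitotic entry, stood at 0.0123, 0 and 1.35 against 97, 118 and 104 (log2 difference 6.33, SE 0.31, adjusted p = 7.47e-10), and its partner Ccnb1, cyclin B1, is listed at 0 in the 3 p53KO libraries against 55.8, 64.8 and 62.6 (adjusted p = 3.46e-10). Birc5, survivin, was at 0.194, 0 and 4.65 and 147, 160.3 and 152, and Anln, the cytokinesis protein anillin, at 0.715, 0.15 and 0.591 and 93, 124 and 125. 

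The promoters of mitotic genes are known for a pair of short elements, the cell cycle genes homology region (CHR, TTTGAA), bound by the DREAM and MuvB-B-Myb-FoxM1 complexes, and CCAAT boxes bound by NF-Y. p53 represses many of these genes through p21 and DREAM, so the windows are shown for 3 members of the list; they run over the 150 bases before the start of transcription in RefSeq (GRCm38.p6, the same assembly as mm10), 5′ to 3′ on the strand of the gene, with TTTGAA or its complement TTCAAA and CCAAT or its complement ATTGG in capitals. 
Ube2c: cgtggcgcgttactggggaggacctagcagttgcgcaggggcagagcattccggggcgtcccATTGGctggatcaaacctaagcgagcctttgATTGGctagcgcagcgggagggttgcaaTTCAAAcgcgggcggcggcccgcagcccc
Top2a: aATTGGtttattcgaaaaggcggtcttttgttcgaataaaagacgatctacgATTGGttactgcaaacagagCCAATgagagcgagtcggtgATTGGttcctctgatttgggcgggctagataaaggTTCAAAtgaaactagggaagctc
Cdk1: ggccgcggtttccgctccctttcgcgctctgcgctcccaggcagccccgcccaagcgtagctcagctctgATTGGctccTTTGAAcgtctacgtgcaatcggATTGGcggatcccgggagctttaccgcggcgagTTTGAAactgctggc
The windows lie at chr2:164769779-164769928 on the plus strand for Ube2c, chr11:99024190-99024339 on the minus strand for Top2a and chr10:69352913-69353062 on the minus strand for Cdk1. Each window holds at least 1 CHR and 2 CCAAT boxes, with the CHR of Ube2c 29 and that of Top2a 23 bases before the start. In windows from 250 bases before to 50 after the start, both strands searched, CHR letters were in 36 of 49 promoters of the list (73.5%; 44 of the 54 genes matched), against 17.9% of all 32851 promoters and 11.7% of those of the genes tested. CHR and CCAAT together were in 32 of 49 (65.3%) against 6.95% and 4.72%. In the promoters of the replication list CHR letters were in 8 of 43 (18.6%), and in those of the cyclin, kinase and E2F list in 9 of 28 (32.1%). A match is a description of the letters and not a binding site, and the motifs reported are those chosen from 14 searched.

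Cyclins, cyclin-dependent kinases and E2F factors rose in the same libraries. Of 30 listed genes 30 passed the filter, 26 rose and 2 fell (median 3.40). Ccnd1, cyclin D1, the growth-factor sensor of G1, stood at 26.9, 13.2 and 48.7 FPKM in p53KO and at 158, 289 and 267 in p53KO_3dai (log2 difference 3.10, SE 0.34, adjusted p = 2.01e-06), and was lowest in replicate 1 of the latter. Ccnd2 fell from 8.05, 5.41 and 4.43 to 1.77, 0.913 and 0.106 (log2 difference -1.92, SE 0.48, adjusted p = 0.0029), while Ccnd3, the cyclin D of differentiating muscle, was at 40.9, 36.3 and 81 and 39.4, 48.7 and 44.9 and not called (adjusted p = 0.641). Cdk4 rose from 48.6, 51.4 and 75.6 to 434, 407 and 468 (log2 difference 2.90, SE 0.17, adjusted p = 2.85e-09) and Cdk6 from 1.52, 2.29 and 0 to 17.2, 35.3 and 31.7 (log2 difference 3.78, SE 0.36, adjusted p = 5.2e-07). The cyclin E genes rose by 4.03 (Ccne1) and 3.76 (Ccne2), E2f1 by 3.32 and the repressor E2f8 by 4.04, and Foxm1 and Mybl2, activators of mitotic genes, by 4.20 and 4.35. Ccne2, E2f1 and E2f8 were highest in p53KO_3dai replicate 1 (Ccne2 at 60.6, 22.8 and 22 FPKM, E2f8 at 31, 15.7 and 14.8). Of the pocket proteins, Rbl2 (p130), the member of the resting state, fell from 7.07, 5.41 and 9.75 to 3.11, 2.67 and 3.41 (log2 difference -1.02, SE 0.27, adjusted p = 0.00484), and Rb1 was at 9.03, 8.91 and 13.1 and 11, 11.7 and 11.6 (adjusted p = 0.58).

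All 47 DNA replication genes listed passed the filter, and 47 rose (median 3.29). Tk1, thymidine kinase, is listed at 0 in the 3 p53KO libraries and stood at 69.7, 66.4 and 70.7 FPKM in p53KO_3dai (adjusted p = 3.81e-10). It passed the filter only through p53KO_3dai. The helicase subunit Mcm3 rose from 4.67, 2.67 and 4.96 to 143, 128 and 115 (log2 difference 4.69, SE 0.22, adjusted p = 3.85e-10), Mcm6 from 8.13, 8.77 and 8.5 to 169.7, 151 and 172 (log2 difference 4.12, SE 0.22, adjusted p = 1.59e-09), and Rrm2, which makes deoxynucleotides, from 10.3, 10 and 11.9 to 339.5, 265 and 267 (log2 difference 4.63, SE 0.27, adjusted p = 3.61e-09). Each of these was at a like level in the 3 p53KO_3dai libraries. Pcna, the sliding clamp, also acts in repair; it was already at 144, 145 and 113 in p53KO and rose least of the list, to 327, 196 and 228 (log2 difference 0.87, SE 0.22, adjusted p = 0.00312). The promoter of Mcm6 shows an element of this group, the E2F site, in capitals over the same 150 bases. The site was searched as TTTCCCGC, TTTGGCGC, TTTCGCGC or TTTGCCGC on both strands. 
Mcm6: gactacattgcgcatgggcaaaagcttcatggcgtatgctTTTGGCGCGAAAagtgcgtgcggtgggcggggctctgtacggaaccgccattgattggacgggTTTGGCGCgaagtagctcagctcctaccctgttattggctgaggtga
The window lies at chr1:128359706-128359855 on the minus strand and holds 3 matches, of which the pair farther from the start overlap. E2F letters were in 13 of 43 promoters of the replication list (30.2%, with 37 of 47 genes matched). The list of cyclins, cyclin-dependent kinases and E2F factors had a like share, 9 of 28 (32.1%). The mitosis list had 3 of 49 (6.12%), all promoters 2.26% and those of the genes tested 3.97%.

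Genes of DNA repair and damage signalling rose too. Of 40 listed genes 40 passed the filter, 36 rose and 1 fell (median 2.11). Brca1, which acts in homologous recombination, stood at 0.0661, 0.158 and 0 FPKM in p53KO and at 17.1, 10 and 8.82 in p53KO_3dai (log2 difference 3.54, SE 0.32, adjusted p = 2.55e-07). The checkpoint kinase Chek1 rose from 1.09, 0 and 1.61 to 25.5, 19.2 and 16.9 (log2 difference 3.59, SE 0.38, adjusted p = 1.52e-06), and Topbp1, an activator of ATR, from 2.79, 2.16 and 3.83 to 61.9, 76.7 and 82.9 (log2 difference 4.26, SE 0.25, adjusted p = 3.12e-09). None overlapped, and Brca1 was highest in p53KO_3dai replicate 1. Atrip, the partner of ATR, was the gene that fell (log2 difference -0.86, adjusted p = 0.0348), but was not called without p53KO replicates 1, 2 or 3 or p53KO_3dai replicate 2 (adjusted p = 0.0691, 0.0825, 0.0609 and 0.193). Msh6, Xrcc2 and Trp53bp1 were not called.

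How did p53 target genes move in cells labelled p53KO? Of 28 targets of arrest and growth control 28 passed the filter, 9 rose and 10 fell (median -0.44), and the median was -0.29 without p53KO_3dai replicate 3 and 0.04 with replicate 1 alone in its group, when 5 fell. Cdkn1a stood at 224, 267 and 221 FPKM in p53KO and at 179, 65.7 and 62.6 in p53KO_3dai (log2 difference -1.38, SE 0.29, adjusted p = 0.000828). It stayed near the p53KO level in replicate 1 and was far lower in replicates 2 and 3. Plk2, a kinase induced by p53, was at 114, 114 and 106 against 200.2, 20.6 and 24.1, Sesn2, a stress sensor that restrains mTORC1, at 22.9, 24.3 and 21.7 against 27.1, 0 and 1.19, and Ddit4, another mTORC1 inhibitor, at 62.6, 44.3 and 76.7 against 38.9, 5.09 and 1.96. In each of these 3 genes replicate 1 was far above the other p53KO_3dai libraries. Plk2 was not called (adjusted p = 0.0741) and was called without replicate 1 (log2 difference -2.27, adjusted p = 1.08e-06), while Sesn2 and Ddit4 were called with all libraries (adjusted p = 0.0111 and 0.00144). With replicate 1 alone in its group the log2 differences were 0.84 for Plk2, 0.23 for Sesn2, -0.61 for Ddit4 and -0.40 for Cdkn1a. Sesn2 was not called without p53KO_3dai replicates 2 or 3 (adjusted p = 0.0687 and 0.0517). Gadd45a, which answers DNA damage, fell from 411, 387 and 684 to 80.8, 13.6 and 36.4 (log2 difference -3.75, SE 0.48, adjusted p = 8.65e-06), Gdf15, a stress cytokine, from 8.88, 10.2 and 17.8 to 2.9, 0.127 and 2.82 (log2 difference -2.32, SE 0.50, adjusted p = 0.000947), and Trp53inp1 from 6.12, 7.2 and 11.2 to 2.06, 0.592 and 0.0975 (log2 difference -2.35, SE 0.41, adjusted p = 0.000175). 

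Other targets of p53 moved either way. Gtse1, which acts in G2 and on microtubules and follows the cell cycle, rose from 0, 0.0956 and 0.639 to 21.5, 14 and 16.3 FPKM (log2 difference 3.89, SE 0.32, adjusted p = 8.61e-08). Tigar, a regulator of glycolysis, rose from 0.313, 1.21 and 0.984 to 8.63, 7.3 and 7.53 (log2 difference 2.30, SE 0.32, adjusted p = 2.13e-05), Ccng1, cyclin G1, from 4.93, 9.21 and 6.19 to 14.3, 14.3 and 19.9 (log2 difference 1.17, SE 0.25, adjusted p = 0.00103), and Zmat3, an RNA-binding protein, from 1.08, 0.852 and 1.26 to 3.32, 3.87 and 2.2 (log2 difference 0.98, SE 0.26, adjusted p = 0.00435). Mdm2, the ligase that degrades p53, was at 37, 34.8 and 32 and 30.1, 26 and 24.8 and was not called (log2 difference -0.35, adjusted p = 0.15), but was called lower under median-of-ratios scaling (log2 difference -0.68, adjusted p = 0.011). Of 15 targets of cell death 15 passed the filter, 6 rose and 5 fell (median 0.59, or 0.20 without p53KO_3dai replicate 1), and 3 fell without replicate 2 and 2 with replicate 1 alone. Bax, a pore-forming protein of apoptosis, rose from 28.8, 25.7 and 14.1 to 93.2, 91.2 and 92.1 (log2 difference 2.03, SE 0.30, adjusted p = 4.29e-05), and Trp53i11, of a function less well known, from 5.09, 2.41 and 1.33 to 114, 164 and 164 (log2 difference 5.33, SE 0.43, adjusted p = 9.09e-08). The death receptor Fas fell from 80.2, 73.3 and 64.3 to 6.24, 0 and 0 (log2 difference -5.24, SE 0.68, adjusted p = 1.01e-05), and Pmaip1 (Noxa) from 17.1, 16.9 and 22.7 to 14.9, 8.2 and 11.1 (log2 difference -0.71, SE 0.24, adjusted p = 0.0199). Pmaip1 was not called without p53KO replicate 3 or p53KO_3dai replicate 2 (adjusted p = 0.0711 and 0.105). Bbc3 (Puma) was at 3.21, 4.22 and 4.99 and 12.3, 2.11 and 2.81 and not called (adjusted p = 0.888), with replicate 1 above and replicates 2 and 3 below every p53KO library. With replicate 1 alone in its group Bbc3 was called higher (log2 difference 1.39, adjusted p = 0.0373). 

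The inhibitors of cyclin-dependent kinases did not move together. All 8 listed passed the filter, 3 rose and 2 fell, and the median of 0.01 has no stable sign. Cdkn2a, which codes p16INK4a and p19ARF, rose from 1.4, 0 and 0 to 20, 15.2 and 13.3 FPKM (log2 difference 3.66, SE 0.45, adjusted p = 6.32e-06), and the values do not separate its 2 products. Cdkn3, a phosphatase that is high in dividing cells, is listed at 0 in the 3 p53KO libraries against 15.5, 33.4 and 19.1 (adjusted p = 2.28e-08). Cdkn2c (p18) rose by 0.85 but was not called without p53KO replicates 1 or 2 or p53KO_3dai replicate 1 (adjusted p = 0.116, 0.0622 and 0.0528) or under median-of-ratios scaling (log2 difference 0.53, adjusted p = 0.129). Besides Cdkn1a, the gene that fell was Cdkn1b (p27), at 33.9, 34.5 and 47.7 against 31.7, 11.3 and 12.3 (log2 difference -1.16, SE 0.30, adjusted p = 0.00359), where replicate 1 was close to the p53KO libraries. Cdkn2b, Cdkn1c and Cdkn2d were not called. Cdkn2b was at 13.4, 0.188 and 0.85 in the 3 p53KO_3dai libraries.

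Genes of myoblast fusion moved both ways, in shares near those over all genes. Of 22 genes of myoblast fusion and adhesion 19 passed the filter, 6 rose and 5 fell (3 without p53KO replicate 2; median -0.09). The fusion gene myomaker, listed as Tmem8c, is at 0 in the 3 p53KO libraries and at 15.6, 11.3 and 12 FPKM in p53KO_3dai (adjusted p = 5.08e-05), and its partner myomixer, listed as Gm7325, is at 0 in p53KO and at 2.95, 0.645 and 1.88 (adjusted p = 0.0445). Gm7325 was not called without p53KO replicates 1, 2 or 3 or p53KO_3dai replicates 1 or 3 (adjusted p = 0.0863, 0.0856, 0.0825, 0.143 and 0.0986). Myof, myoferlin, a membrane fusion protein, rose from 5.31, 3.54 and 1.19 to 64.2, 91.1 and 98.4 (log2 difference 4.41, SE 0.32, adjusted p = 2.65e-08), and Cdh2, N-cadherin, from 2.81, 2.07 and 1.41 to 40.5, 54.6 and 53 (log2 difference 4.04, SE 0.24, adjusted p = 3.77e-09). All 4 were without overlap. Ncam1, an adhesion protein, and Elmo1 fell by 0.84 and 1.68. Of 41 sarcomere genes 29 passed the filter, 6 rose and 7 fell (median 0.34). Embryonic forms were among those that rose: Tnnt2, cardiac troponin T, from 1.56, 0 and 0 to 16.2, 15.5 and 19.3 (log2 difference 3.71, SE 0.39, adjusted p = 1.11e-06), and Myh3, embryonic myosin, from 0.124, 0.153 and 0 to 7.12, 4.06 and 3.18 (log2 difference 2.35, SE 0.47, adjusted p = 0.000517). Tpm1, a tropomyosin also used outside muscle, rose from 136, 108 and 95.1 to 459, 736 and 609 (log2 difference 2.39, SE 0.29, adjusted p = 4.56e-06). Mybpc1, slow myosin-binding protein C, fell from 19, 20.7 and 22.2 to 1.08, 0.661 and 2.46 (log2 difference -3.24, SE 0.41, adjusted p = 8.68e-06), and Des, desmin, from 499.7, 494 and 388 to 248, 243 and 198 (adjusted p = 7.93e-05). 

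The fetal acetylcholine receptor rose in 3 of its subunits. Chrnd stood at 0, 0 and 1.05 FPKM in p53KO and at 29.1, 37 and 38.4 in p53KO_3dai (log2 difference 4.81, SE 0.36, adjusted p = 4.22e-08), Chrng, the fetal gamma subunit, at 0.114, 0.0989 and 0 and 9.33, 22.9 and 17.4 (log2 difference 3.95, SE 0.36, adjusted p = 2.55e-07), and Chrna1 at 9.97, 8.01 and 17 and 102, 141 and 139.8 (log2 difference 3.39, SE 0.24, adjusted p = 1.75e-08). Chrnb1, the beta subunit, was at 77.8, 89.9 and 104 and 63.4, 77.9 and 72.5 and was not called (adjusted p = 0.136), but was called lower under median-of-ratios scaling (log2 difference -0.67, adjusted p = 0.00786). Dok7, the cytoplasmic activator of the receptor kinase MuSK, rose from 0.416, 0.581 and 0 to 12.8, 15.5 and 9.97 (log2 difference 3.37, SE 0.32, adjusted p = 4.95e-07), while Musk itself fell from 84.9, 107 and 46.2 to 11.2, 7.73 and 9.5 (log2 difference -2.87, SE 0.26, adjusted p = 2.82e-07). Of 10 genes listed 9 passed the filter, 5 rose and 1 fell (median 1.47).

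The dystrophin complex links the cytoskeleton of the muscle cell to laminin outside it. Of 18 genes 16 passed the filter, 0 rose and 10 fell (median -1.02); 6 fell without p53KO_3dai replicate 1 and p53KO replicate 3. Dmd, which codes dystrophin, stood at 16, 17 and 22 FPKM in p53KO and at 1.95, 0.826 and 1.04 in p53KO_3dai (log2 difference -3.11, SE 0.28, adjusted p = 3e-07). Utrn, its paralogue utrophin, fell from 29.8, 27 and 31 to 8.17, 10.8 and 11.7 (log2 difference -1.44, SE 0.25, adjusted p = 0.000149). Sgca, alpha-sarcoglycan, fell from 10.5, 14.6 and 12.5 to 0.291, 1.42 and 0.357 (log2 difference -3.05, SE 0.50, adjusted p = 9.43e-05), and Lama2, the laminin chain of the muscle basement membrane, from 44.3, 49.4 and 62.2 to 11.2, 10.8 and 12.6 (log2 difference -2.06, SE 0.28, adjusted p = 1.54e-05). None of these 4 overlapped between groups.

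Imprinted genes, which are expressed from 1 parental copy and often act on growth, moved both ways. Of 17 listed 16 passed the filter, 4 rose and 8 fell (median -1.02). The 3 noncoding RNAs of a shared cluster fell together: Meg3 stood at 82.4, 88.9 and 80.6 FPKM in p53KO and at 0.142, 0.476 and 0.0299 in p53KO_3dai (log2 difference -6.14, SE 0.44, adjusted p = 2.49e-08), Rian at 91.7, 103 and 95.9 and 0.852, 0.777 and 1.54 (log2 difference -5.59, SE 0.28, adjusted p = 7.66e-10), and Mirg at 21.2, 19 and 14.7 and 0, 0 and 0.615 (log2 difference -4.02, SE 0.31, adjusted p = 5.75e-08). The 3 p53KO libraries were close to each other in all 3 RNAs. H19, a noncoding RNA, rose from 21.3, 13.8 and 36.1 to 50.2, 95 and 86.1 (log2 difference 1.71, SE 0.42, adjusted p = 0.00264), while its neighbour Igf2, a fetal growth factor, fell from 34.8, 39.4 and 48.6 to 5.9, 3.55 and 3.17 (log2 difference -3.03, SE 0.27, adjusted p = 2.31e-07). Peg10 and Grb10 rose by 2.04 and 1.25. Peg3, Ndn, Cdkn1c and Dlk1 were not called.

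Most genes of the insulin-like growth factor pathway fell. Of 16 genes 14 passed the filter, 3 rose and 10 fell (median -2.08). Igfbp2 rose from 1.66, 0 and 0 to 15.6, 47.5 and 45.7 FPKM (log2 difference 4.60, SE 0.55, adjusted p = 4.31e-06), lowest in p53KO_3dai replicate 1, and Igfbp3 from 2.78, 4.31 and 0.918 to 33.5, 37 and 28.3 (log2 difference 3.32, SE 0.34, adjusted p = 1.03e-06). Igfbp7 fell from 281, 174 and 151 to 18.2, 4.63 and 3.68 (log2 difference -4.62, SE 0.42, adjusted p = 3e-07) and Igfbp4 from 79.1, 88.6 and 137 to 9.53, 5.87 and 8.71 (log2 difference -3.49, SE 0.24, adjusted p = 1.65e-08). The ligand Igf1 fell from 7.17, 4.1 and 16.1 to 0, 2.34 and 0 (log2 difference -2.58, SE 0.47, adjusted p = 0.000255), and the adaptor gene Irs2 fell by 3.60. 

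Receptors of other growth factors were mostly lower. Of 22 genes of these receptors and their feedback inhibitors 19 passed the filter, 2 rose and 13 fell (median -1.36). Fgfr1, the main FGF receptor of satellite cells, stood at 400.3, 494 and 233 FPKM in p53KO and at 46.4, 20.9 and 17.7 in p53KO_3dai (log2 difference -3.74, SE 0.30, adjusted p = 8.17e-08), and Fgfr4 at 96, 98.2 and 255 and 21.2, 34.5 and 27.6 (log2 difference -2.26, SE 0.36, adjusted p = 6.91e-05). Met, the receptor of hepatocyte growth factor, rose from 53.3, 58.6 and 22.9 to 103, 126 and 124 (log2 difference 1.47, SE 0.28, adjusted p = 0.000397), and Etv4, a transcription factor downstream of FGF, rose by 2.80. Of 35 genes of TGF-beta, BMP and myostatin signalling 32 passed the filter, 1 rose and 23 fell (median -1.56), or 12 fell with p53KO_3dai replicate 1 alone. The ligand Bmp4 fell from 78.2, 60.6 and 73.2 to 0.892, 1.31 and 1.53 (log2 difference -5.00, SE 0.27, adjusted p = 1.59e-09) and Bmp6 from 59.2, 59.4 and 74.5 to 2.6, 0.152 and 0.382 (log2 difference -5.18, SE 0.44, adjusted p = 1.42e-07). The coreceptor Tgfbr3 fell from 62.1, 62.1 and 151 to 5.48, 0.754 and 0.966 (log2 difference -4.91, SE 0.50, adjusted p = 9.39e-07), and Fstl1, a secreted glycoprotein, from 115, 81.7 and 98.5 to 10.5, 13.3 and 13.4 (log2 difference -2.89, SE 0.17, adjusted p = 3.07e-09). Gdf11, a relative of myostatin, was the gene that rose (log2 difference 0.96, SE 0.26, adjusted p = 0.00596).

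Genes of Wnt and YAP signalling moved both ways. Of 28 genes of both pathways 23 passed the filter, 4 rose and 10 fell (median -0.48, or -0.28 without p53KO replicate 3, -0.30 without p53KO_3dai replicate 2 and 0.01 with p53KO_3dai replicate 1 alone). Ctgf, a matricellular target of YAP and of TGF-beta, stood at 824, 946 and 692 FPKM in p53KO and at 47.6, 0.939 and 0.211 in p53KO_3dai (log2 difference -7.39, SE 0.93, adjusted p = 7.44e-06), and replicate 1 was far above the other p53KO_3dai libraries. Cyr61, a related target, fell from 614, 653 and 1718 to 73.7, 100.3 and 82.1 (log2 difference -3.37, SE 0.33, adjusted p = 6.49e-07). Of other genes linked to YAP, Ankrd1 was not called (log2 difference 0.36, adjusted p = 0.362), nor was Amotl2 (log2 difference -0.58, adjusted p = 0.167; without p53KO_3dai replicate 1, adjusted p = 0.00986), and Ajuba rose (log2 difference 2.35, SE 0.35, adjusted p = 4.25e-05). Tead4, a TEAD factor of myoblasts, rose from 0.0597, 0.124 and 0.554 to 13.1, 8.3 and 6.28 (log2 difference 3.00, SE 0.35, adjusted p = 3.91e-06), and Axin2, a feedback target of Wnt signalling, from 0.606, 0.411 and 1.08 to 4.46, 3.57 and 4.03 (log2 difference 1.58, SE 0.30, adjusted p = 0.000313). Wnt4, which acts on the quiescence of satellite cells, fell from 3.38, 2.88 and 8.22 to 0.653, 0 and 0 (log2 difference -2.19, SE 0.38, adjusted p = 0.000167). 

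**Figure D3:**
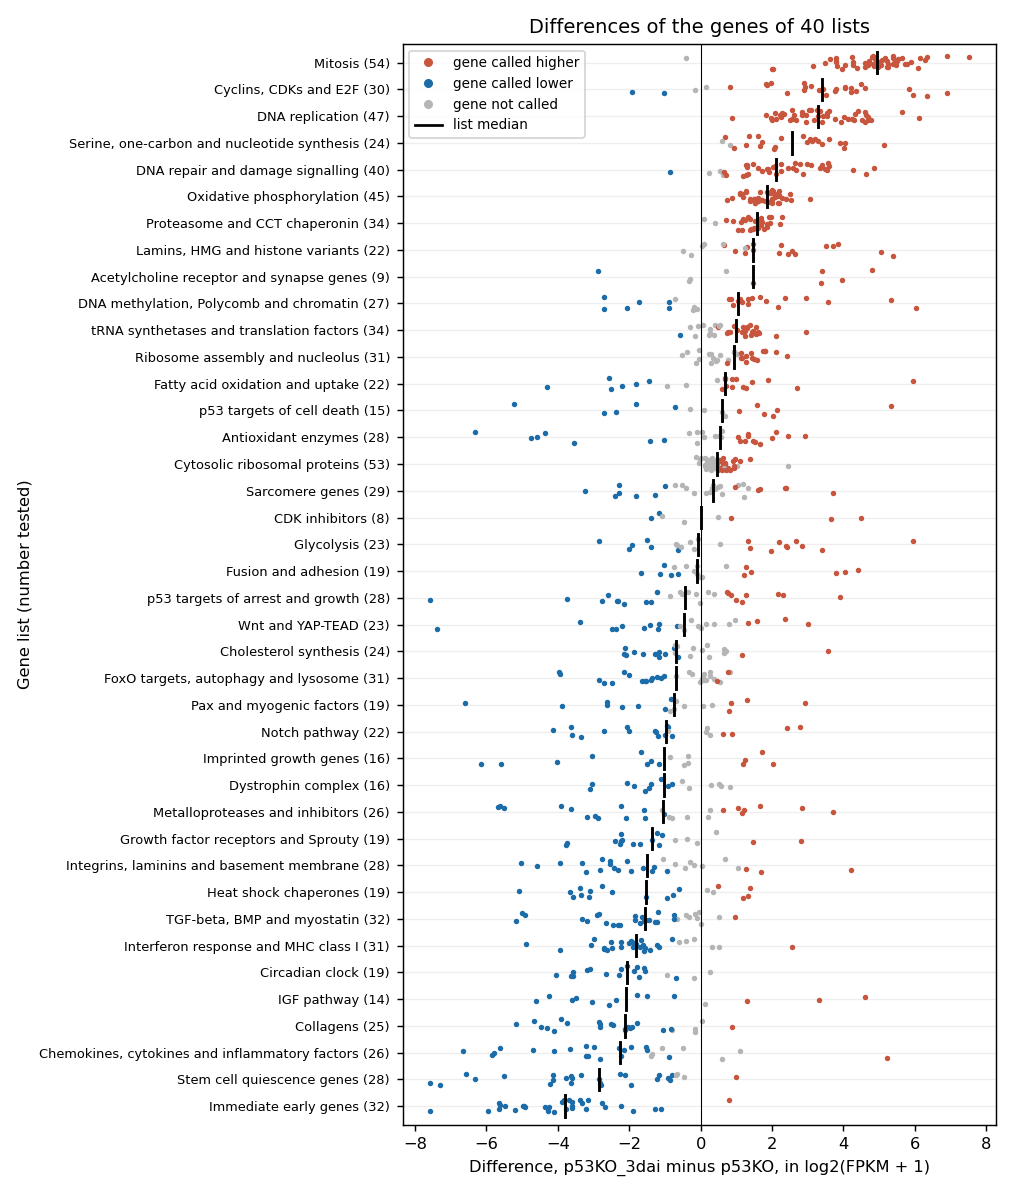
Difference between p53KO_3dai and p53KO in log2(FPKM + 1) (x) of each tested gene in 40 lists (y, number tested in brackets, ordered by median), with 1 point per gene, red where called higher, blue where called lower and grey where not called, and black bars at the list medians. The medians run from -3.79 for immediate early genes to 4.94 for mitosis.

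Immediate early genes, which cells switch on within minutes of a stimulus and which tissue digestion is also known to induce, were far lower in p53KO_3dai. All 32 listed passed the filter, 31 fell and 1 rose (median -3.79). Fos stood at 1265, 1164 and 4273 FPKM in p53KO and at 48.5, 54.9 and 75.8 in p53KO_3dai (log2 difference -4.95, SE 0.48, adjusted p = 5.16e-07), and Egr1 at 1168, 1325 and 3089.6 and 18.3, 92.5 and 95.7 (log2 difference -4.91, SE 0.56, adjusted p = 2.85e-06). Atf3, a stress factor, was at 595, 495 and 1759.7 against 25.7, 8.97 and 14.1 (log2 difference -5.66, SE 0.46, adjusted p = 8.21e-08). In these 3 genes p53KO replicate 3 was the highest library, far above replicates 1 and 2, and no values overlapped. Myc fell from 403, 411 and 352 to 93, 24.8 and 23.9 (log2 difference -3.31, SE 0.36, adjusted p = 1.63e-06) and Junb from 1136, 1010.2 and 3088 to 174, 42.5 and 53 (log2 difference -4.36, SE 0.48, adjusted p = 1.92e-06), and in both replicate 1 was the highest p53KO_3dai library. Klf10, a target of TGF-beta, was the gene that rose (log2 difference 0.79, SE 0.31, adjusted p = 0.0372), at 64.8, 24.3 and 22.3 FPKM in p53KO_3dai. Klf10 was not called without p53KO replicates 1, 2 or 3 or p53KO_3dai replicate 1 (adjusted p = 0.111, 0.0538, 0.0576 and 0.212) or under median-of-ratios scaling (log2 difference 0.47, adjusted p = 0.185). Without both libraries that stand apart 30 genes fell and 0 rose. The time from dissection to lysis was not analysed here. The promoter of Fos carries the core TGACG of the cAMP response element, shown in capitals for the same window and on the strand of the gene. 
Fos: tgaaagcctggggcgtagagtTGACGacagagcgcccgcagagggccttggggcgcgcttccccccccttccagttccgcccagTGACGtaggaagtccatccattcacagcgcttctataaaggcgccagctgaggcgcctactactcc
The window lies at chr12:85473740-85473889 on the plus strand. TGACG or its complement was in 22 of 34 promoters of the list (64.7%; 25 of 32 genes matched) against 20.8% of all promoters and 31.5% of those of the genes tested, and in 16 of 49 (32.7%) of the mitosis list, close to the latter share.

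Most heat shock genes fell. All 19 genes listed passed the filter, 4 rose and 13 fell (median -1.54). Dnajb1, an inducible partner of Hsp70, stood at 848, 693 and 2466 FPKM in p53KO and at 27.2, 34.2 and 35.9 in p53KO_3dai (log2 difference -5.09, SE 0.42, adjusted p = 1.07e-07), and Hspb1 at 1167, 848 and 1431 and 49, 115 and 141 (log2 difference -3.58, SE 0.46, adjusted p = 9.41e-06). The inducible Hsp70 gene Hspa1a was at 742, 598 and 1862 against 5.37, 332 and 365 (log2 difference -3.35, SE 1.13, adjusted p = 0.0188), far lower in replicate 1 than in replicates 2 and 3; its near copy Hspa1b, from which its reads may not be separable, showed the same order. Hspa1a was not called without p53KO replicate 3 or p53KO_3dai replicate 1 (adjusted p = 0.0719 and 0.0663). Of the chaperones of mitochondria, Hspe1 was not called, while Hspd1 rose from 323, 297 and 280.2 to 651, 787 and 855 (log2 difference 1.34, SE 0.24, adjusted p = 0.000253) and Hspa9 by 1.18. 

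Antioxidant genes moved both ways. Of 28 genes listed 28 passed the filter, 12 rose and 7 fell (median 0.54, or 0.23 without p53KO replicate 3 and 0.35 without p53KO_3dai replicate 1), or 4 fell with p53KO_3dai replicate 1 alone. Gsr, glutathione reductase, rose from 10.3, 6.33 and 5.41 to 61.9, 70 and 51.3 FPKM (log2 difference 2.93, SE 0.24, adjusted p = 9.86e-08), Gpx1 by 2.44, Prdx2 by 2.10 and Prdx3 by 2.01. Hmox1, haem oxygenase, fell from 1019, 933 and 159 to 264, 3.58 and 5.56 (log2 difference -4.74, SE 1.12, adjusted p = 0.002), with replicate 1 of p53KO_3dai above p53KO replicate 3, and Srxn1, sulfiredoxin, from 717, 760 and 319 to 77.4, 10.8 and 12.5 (log2 difference -4.59, SE 0.52, adjusted p = 2.84e-06). Genes of FoxO and autophagy were lower or level: of 33 genes 31 passed the filter, 2 rose and 15 fell (median -0.70, or -0.22 without p53KO_3dai replicate 3 and -1.08 without replicate 1), and 4 rose without p53KO replicate 3. Foxo1, a factor of quiescence and atrophy, fell from 13.2, 11.9 and 15 to 1.49, 0.313 and 1.36 (log2 difference -2.86, SE 0.32, adjusted p = 2.46e-06), and Sqstm1 (p62), an autophagy receptor, from 778, 914 and 822 to 421, 73 and 67.6 (log2 difference -2.70, SE 0.46, adjusted p = 0.00014), again with replicate 1 the highest of its group. 

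Most clock genes fell. Of 19 genes 19 passed the filter, 0 rose and 16 fell (median -2.05). Per1 stood at 38.9, 41.6 and 83.3 FPKM in p53KO and at 4.14, 1.36 and 1.54 in p53KO_3dai (log2 difference -4.06, SE 0.41, adjusted p = 9.31e-07), Nr1d1, the repressor REV-ERB alpha, at 76.9, 93.4 and 61.5 and 21.2, 3.07 and 7.07 (log2 difference -3.10, SE 0.43, adjusted p = 2.03e-05), and Rora, which opposes it, at 20.4, 21.6 and 36.5 and 1, 1.64 and 1 (log2 difference -3.58, SE 0.28, adjusted p = 4.97e-08). The groups did not overlap in these 3 genes. Nr1d1 was highest in replicate 1 of p53KO_3dai. The time of day of collection was not analysed here.

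Genes of biosynthesis mostly rose. Of 24 genes of serine, one-carbon and nucleotide synthesis 24 passed the filter, 22 rose and 0 fell (median 2.56). Phgdh, the first enzyme of serine synthesis, stood at 5.34, 4.01 and 2.84 FPKM in p53KO and at 174, 173 and 176 in p53KO_3dai (log2 difference 5.14, SE 0.18, adjusted p = 8.78e-11), and Mthfd1l, of mitochondrial folate metabolism, at 2.06, 3.01 and 3.4 and 61.9, 63.5 and 56.6 (log2 difference 4.03, SE 0.24, adjusted p = 3.86e-09). The 3 p53KO_3dai libraries were almost level in Phgdh. Impdh2 and Umps were not called. All 45 nuclear genes of oxidative phosphorylation listed passed the filter and 45 rose (median 1.86), among them Sdhd of complex II (log2 difference 2.52, SE 0.19, adjusted p = 3.62e-08) and Atp5o of ATP synthase (log2 difference 2.39, SE 0.24, adjusted p = 8.34e-07). Under median-of-ratios scaling 43 of the 45 were higher (median 1.53). Of 25 genes of fatty acid oxidation and uptake 22 passed the filter, 13 rose (8 under median-of-ratios scaling) and 6 fell (median 0.68). Acads, of short-chain oxidation, rose from 3, 3.65 and 3.24 to 25.2, 25.6 and 29.7 (log2 difference 2.69, SE 0.33, adjusted p = 5.1e-06), and Lpl, lipoprotein lipase, fell from 187, 203 and 326 to 38.6, 42.8 and 38. 

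Glycolysis genes moved both ways. Of 25 genes 23 passed the filter, 10 rose and 6 fell, with a median of -0.08 that has no stable sign; 10 fell under median-of-ratios scaling and 2 with p53KO_3dai replicate 1 alone. Pgk1 stood at 24.5, 27.7 and 16 FPKM in p53KO and at 204, 279 and 255 in p53KO_3dai (log2 difference 3.40, SE 0.26, adjusted p = 4.22e-08), Tpi1 at 54.6, 37.1 and 38.4 and 251, 332 and 262 (log2 difference 2.68, SE 0.25, adjusted p = 3.58e-07), and Pkm, pyruvate kinase, at 217, 212 and 217 and 1044, 1226 and 1217 (log2 difference 2.42, SE 0.14, adjusted p = 2.28e-09). The glucose transporter Slc2a1 fell from 114, 97 and 66.7 to 38, 15.8 and 17.1 (log2 difference -2.00, SE 0.28, adjusted p = 2.46e-05), hexokinase 2 (Hk2) from 79.1, 78.3 and 29 to 21, 11.4 and 11.7, and the lactate exporter Slc16a3 by 2.86. Eno1 has near-zero values in every library while its copy Eno1b is at 30.6 to 37.9 FPKM in p53KO and 744 to 901 in p53KO_3dai, so the level of this enolase rests on how reads were split between copies. Gapdh has many near-identical pseudogenes and its value is uncertain for the same reason. Of 24 genes of cholesterol synthesis and uptake 24 passed the filter, 2 rose and 11 fell (median -0.68, or -0.44 without p53KO replicate 3), or 4 fell with p53KO_3dai replicate 1 alone. Insig1, a brake on sterol synthesis, fell from 50.5, 49 and 129 to 17.3, 14.7 and 12.7 (log2 difference -2.14, SE 0.34, adjusted p = 7.18e-05). 

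The machinery of protein synthesis and turnover was higher to differing degrees. Of 34 proteasome and CCT chaperonin genes 34 passed the filter, 32 rose and 0 fell (median 1.57), among them Psmb3 (log2 difference 2.28, SE 0.24, adjusted p = 1.39e-06). Of 35 tRNA synthetases and translation factors 34 passed the filter, 22 rose and 1 fell (median 0.98), led by Vars, the valine enzyme, at 11.9, 14.5 and 19.2 FPKM in p53KO and at 105, 141 and 119 in p53KO_3dai (log2 difference 2.94, SE 0.19, adjusted p = 8.29e-09). Eif5 was the gene that fell (log2 difference -0.59, SE 0.14, adjusted p = 0.00267). Of 31 genes of ribosome assembly 31 passed the filter, 16 rose and 0 fell (median 0.94, or 0.54 without p53KO replicate 3). Utp20, of pre-rRNA processing, rose from 7.97, 9.68 and 6.02 to 30.8, 41.4 and 38.9 (log2 difference 2.11, SE 0.24, adjusted p = 2.49e-06), and Dkc1, dyskerin, from 44.1, 54.6 and 22 to 121, 137 and 145 (log2 difference 1.80, SE 0.24, adjusted p = 1.61e-05), where p53KO replicate 3 was the lowest library. Without both libraries that stand apart 3 genes of ribosome assembly fell. Cytosolic ribosomal proteins moved least: all 53 passed the filter, 24 rose and 0 fell (median 0.45), but 7 rose under median-of-ratios scaling (median 0.11) and 15 without p53KO_3dai replicate 3. Rps2 rose most of those called, from 758, 659 and 714 to 1703, 1845 and 1947 (log2 difference 1.37, SE 0.20, adjusted p = 3.18e-05). These genes have near-identical pseudogenes, which makes single values uncertain.

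Most chromatin genes listed rose. Of 29 genes of DNA methylation, Polycomb and histone modification 27 passed the filter, 17 rose and 6 fell (median 1.05). Hells, a remodeller for DNA methylation, stood at 0.151, 0.338 and 0.936 FPKM in p53KO and at 79.1, 94.9 and 107 in p53KO_3dai (log2 difference 6.03, SE 0.27, adjusted p = 3.49e-10), and Uhrf1, which brings Dnmt1 to replicated DNA, at 0.737, 0.244 and 3.16 and 121, 72.7 and 65.8 (log2 difference 5.34, SE 0.40, adjusted p = 3.77e-08). Dnmt1, the maintenance methyltransferase, rose from 6.03, 5.23 and 5.59 to 72.9, 81.6 and 80.3 (log2 difference 3.58, SE 0.23, adjusted p = 7.18e-09), while the de novo enzyme Dnmt3a was at 4.25, 4.71 and 5.23 and 4.72, 4.89 and 3.46 and not called (adjusted p = 0.747). The 2 catalytic subunits of Polycomb complex 2 went opposite ways: Ezh2, the form of dividing cells, rose from 9.52, 8.68 and 10.4 to 81, 76.8 and 81.3 (log2 difference 2.94, SE 0.19, adjusted p = 8.41e-09), and Ezh1, the form of resting cells, fell from 7.32, 11.2 and 18.1 to 4.4, 1.56 and 0.937 (log2 difference -2.06, SE 0.40, adjusted p = 0.00043). Of 22 lamins, HMG proteins and histone variants 22 passed the filter, 16 rose and 0 fell (median 1.47). Hmga2, a chromatin protein of fetal and growing cells, stood at 0.0742, 0.00856 and 0.36 against 26.5, 41.4 and 44.1 (log2 difference 5.04, SE 0.25, adjusted p = 7.66e-10), and Lmnb1, lamin B1, at 8.17, 10.7 and 10.4 against 127, 119.5 and 117 (log2 difference 3.51, SE 0.19, adjusted p = 1.62e-09). 

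Markers of blood, vessel, connective tissue and nerve cells were at low levels in both groups or were mostly lower in p53KO_3dai, and in bulk samples fewer cells of a type and less RNA per cell cannot be told apart. Neutrophil markers were at 0 in all 6 libraries (7 listed), and lymphocyte markers summed to 0.00898 to 2.88 FPKM in p53KO and 0 to 0.844 in p53KO_3dai, with Cd3e, Cd4 and Cd8a at 0 throughout. Macrophage markers (14 listed) summed to 4.73 to 18.4 and 2.87 to 9.95 FPKM, with Csf1r, C1qa and Aif1 at 0 throughout; 3 were tested and Cd14 fell. Endothelial markers (12 listed) summed to 34.8 to 47.1 and 0.887 to 4.09. As summed lists, connective tissue and nerve markers were far higher in p53KO than those of blood cells, and most of those tested fell. Fibro-adipogenic progenitor markers summed to 984 to 1239 FPKM in p53KO and 77.9 to 121 in p53KO_3dai, and 8 of 9 tested fell (median -2.73). The sum includes matrix genes, with Dcn among the high ones. Pdgfra, Ly6a and Dpp4 did not pass the filter and were low in both groups. Pdgfra stood at 0.567, 0.739 and 0.296 FPKM in p53KO and at 1.21, 0.545 and 0.119 in p53KO_3dai. Dpp4 stood at 0.721, 0.611 and 0.311 and at 1, 0 and 0. Pericyte and smooth muscle markers, which include Des, a gene of myogenic cells, summed to 1102 to 1377 and 224 to 318, and 11 of 12 fell. Schwann cell markers summed to 588 to 634 and 24.4 to 98, and 10 of 12 fell. Tenocyte markers summed to 288 to 438 and 36 to 73.5, and 9 of 10 fell, with Tnmd, tenomodulin, at 51.7, 44.1 and 32.4 in p53KO and listed at 0 in p53KO_3dai. The tenocyte marker that rose was Scx, scleraxis, from 2.25, 4.44 and 4.55 to 45.4, 31.6 and 32 (log2 difference 3.00, SE 0.40, adjusted p = 1.38e-05). Adipocyte markers (8 listed) summed to 17.8 to 39.8 and 0 to 1.15, and red blood cell markers (7 listed) to 1.23 to 26.9 and 0 to 0.00287. Mature fibre markers summed to 125 to 151 in p53KO and 649 to 811 in p53KO_3dai, most of the latter from Eno3, muscle enolase, which rose from 7.54, 7.5 and 14.2 to 537, 687 and 695 (log2 difference 5.95, SE 0.23, adjusted p = 8.86e-11). Of 14 mature fibre markers, 12 were tested, 1 rose and 4 fell (median -0.53, or -0.21 without p53KO replicate 3 and -0.32 without p53KO_3dai replicate 1). Ckm, muscle creatine kinase, stood at 6.86, 9.31 and 4.79 against 0, 0.0461 and 0 (log2 difference -2.94, SE 0.56, adjusted p = 0.000356). 

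Genes of the extracellular matrix fell, and the markers of connective tissue cells moved with them, whose part in the fall was not tested. Of 27 collagen genes 25 passed the filter, 1 rose and 20 fell (median -2.13). Col15a1, a basement membrane collagen that is high in satellite cells, stood at 39.1, 47.9 and 61.1 FPKM in p53KO and at 1.07, 0.0982 and 0.124 in p53KO_3dai (log2 difference -5.18, SE 0.35, adjusted p = 1.24e-08). Col4a1, the main chain of basement membrane, fell from 141, 125 and 156 to 13, 5.22 and 3.12 (log2 difference -4.31, SE 0.34, adjusted p = 7.11e-08), and Col1a1, of fibrillar collagen, from 118, 97.1 and 98.4 to 8.61, 2.45 and 1.12 (log2 difference -4.67, SE 0.42, adjusted p = 2.55e-07). In these 3 genes replicate 1 was the highest p53KO_3dai library. Col8a1 was the gene that rose (log2 difference 0.87, SE 0.25, adjusted p = 0.00787; under median-of-ratios scaling, log2 difference 0.57, adjusted p = 0.0733), and Col5a2 was not called. Of 31 integrins, laminins and basement membrane genes 28 passed the filter, 3 rose and 17 fell (median -1.49). Itga3, a laminin receptor chain, rose from 1.84, 0.729 and 1.13 to 26.1, 48.4 and 48.5 (log2 difference 4.21, SE 0.30, adjusted p = 2.67e-08) and Lamb1 from 10.8, 13.3 and 12.2 to 25.7, 52.2 and 51 (log2 difference 1.68, SE 0.30, adjusted p = 0.000186), each lowest in replicate 1. Postn, periostin, fell from 154, 88.8 and 69.6 to 10.4, 1.95 and 1.11 (log2 difference -4.59, SE 0.47, adjusted p = 9.93e-07), and Dcn, decorin, from 625, 443 and 339.7 to 43.1, 23.6 and 23.2 (log2 difference -3.94, SE 0.28, adjusted p = 2.14e-08). Of 28 metalloproteases and inhibitors 26 passed the filter, 7 rose and 13 fell (median -1.06). Mmp2, gelatinase A, fell from 98.7, 158 and 106 to 2.75, 1.63 and 0.267 (log2 difference -5.68, SE 0.36, adjusted p = 7.04e-09) and Timp3 from 172, 133 and 127 to 10.8, 0.873 and 0.471 (log2 difference -5.50, SE 0.54, adjusted p = 6.44e-07), while Adam8 stood at 0, 0 and 0.215 against 13.4, 13.9 and 11.8 (log2 difference 3.72, SE 0.25, adjusted p = 1.24e-08). 

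Genes of the interferon response and of antigen presentation fell. Of 34 listed 31 passed the filter, 1 rose and 25 fell (median -1.82). Gbp2, a GTPase induced by interferon gamma, stood at 105, 97.5 and 37.3 FPKM in p53KO and at 2.95, 0.694 and 1.27 in p53KO_3dai (log2 difference -4.89, SE 0.54, adjusted p = 2.11e-06), Isg15, a ubiquitin-like protein, at 57.8, 27.3 and 9.37 and 3.69, 0 and 0 (log2 difference -3.95, SE 0.59, adjusted p = 4.26e-05), and Ifit1, an antiviral RNA-binding protein, at 15, 6.95 and 4.29 and 0.157, 0.183 and 0 (log2 difference -2.98, SE 0.38, adjusted p = 9.24e-06). In all 3 the p53KO libraries themselves spread widely, with replicate 1 high and replicate 3 low, but no p53KO_3dai value reached them. B2m, the light chain of MHC class I, fell from 673, 594 and 444 to 221, 179 and 174 (log2 difference -1.56, SE 0.23, adjusted p = 3.14e-05), and H2-K1, a heavy chain, from 248, 243 and 149 to 70.8, 46.4 and 50.3 (log2 difference -1.90, SE 0.24, adjusted p = 6.69e-06). Irf9, part of the complex that binds the interferon-stimulated response element, fell from 27.7, 23.4 and 27.2 to 2.09, 2.45 and 2.17 (log2 difference -3.06, SE 0.26, adjusted p = 1.36e-07). The gene that rose was Psmb10, an immunoproteasome subunit (log2 difference 2.55, SE 0.43, adjusted p = 0.000135). The response element, searched as GAAA followed after any 2 bases by a further GAAA, on both strands, is in capitals in the windows of 3 members. 
Gbp2: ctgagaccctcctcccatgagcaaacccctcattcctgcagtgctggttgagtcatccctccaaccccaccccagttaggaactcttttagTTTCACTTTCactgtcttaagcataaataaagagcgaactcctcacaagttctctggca
Isg15: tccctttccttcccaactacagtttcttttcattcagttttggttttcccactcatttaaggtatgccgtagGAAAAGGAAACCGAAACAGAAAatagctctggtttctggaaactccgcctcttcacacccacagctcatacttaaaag
Ifit1: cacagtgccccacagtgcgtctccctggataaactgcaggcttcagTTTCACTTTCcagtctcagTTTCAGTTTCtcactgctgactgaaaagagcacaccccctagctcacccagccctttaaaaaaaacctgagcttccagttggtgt
The windows lie at chr3:142620513-142620662 on the plus strand for Gbp2, chr4:156200819-156200968 on the minus strand for Isg15 and chr19:34640739-34640888 on the plus strand for Ifit1. Gbp2 has 1 match, Ifit1 has 2 and Isg15 has 3 that overlap. The letters were in 12 of 30 promoters of the list (40.0%; 25 of 31 tested genes matched) against 3.44% of all promoters and 2.94% of those of the genes tested.

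Chemokines, cytokines and other inflammatory genes fell as well. Of 29 genes 26 passed the filter, 1 rose and 19 fell (median -2.26), or 12 fell with p53KO_3dai replicate 1 alone. Ccl11, eotaxin, stood at 520.3, 133 and 42.3 FPKM in p53KO and at 0.367, 0.642 and 0.291 in p53KO_3dai (log2 difference -6.66, SE 0.62, adjusted p = 3.41e-07), and Cxcl1, which draws neutrophils, at 1624, 1440.4 and 1167 and 141, 12.9 and 10.3 (log2 difference -5.63, SE 0.64, adjusted p = 2.83e-06). Il6 was at 378, 141 and 63.2 against 19.1, 0 and 0 (log2 difference -5.79, SE 0.93, adjusted p = 8.29e-05), and Ccl2, which draws monocytes, at 154, 53.5 and 46.7 against 62.9, 1.2 and 2.51 (log2 difference -3.22, SE 0.86, adjusted p = 0.00462), with replicate 1 inside the p53KO range. Neutrophil markers were at 0 in both groups, and the 14 macrophage markers summed to 4.73 to 18.4 FPKM in p53KO and 2.87 to 9.95 in p53KO_3dai. Which cells expressed the chemokine and cytokine genes was not tested. Spp1, osteopontin, was the gene that rose, from 25.7, 25.7 and 15.2 to 735, 861 and 946 (log2 difference 5.22, SE 0.27, adjusted p = 1.12e-09), without overlap. 

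**Figure D4:**
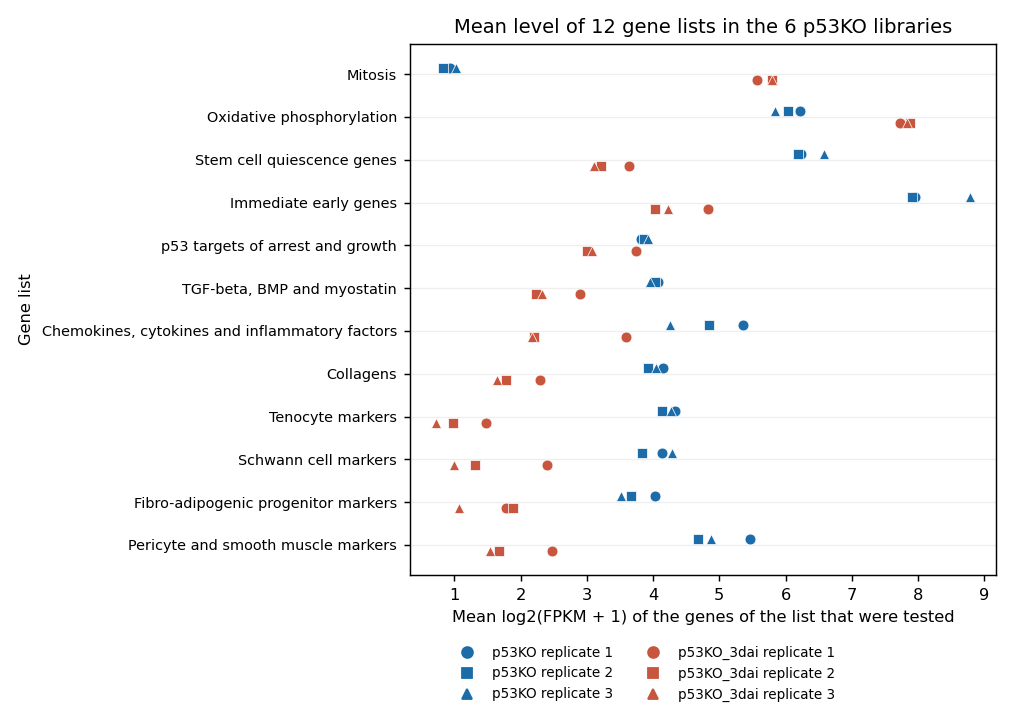
Mean log2(FPKM + 1) of the genes of 12 lists (y) in each p53KO library (blue) and p53KO_3dai library (red), where the shape gives the replicate. Although the axis names the genes tested, the means include genes of a list that did not pass the filter. For chemokines and cytokines p53KO_3dai replicate 1 lies at 3.59 against 2.20 and 2.17 in replicates 2 and 3, and for Schwann cell markers at 2.40 against 1.31 and 1.00, while for mitosis the 3 lie at 5.57, 5.79 and 5.79.

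The 3 p53KO_3dai libraries differed among themselves in these same lists. The mean log2 level of p53 targets of arrest was 3.75, 3.00 and 3.08 in replicates 1, 2 and 3, against 3.82, 3.86 and 3.92 in p53KO. For TGF-beta and BMP genes it was 2.90, 2.24 and 2.32 against 4.08, 4.03 and 3.96, and for immediate early genes 4.83, 4.03 and 4.23 against 7.96, 7.91 and 8.78. Replicate 1 was the nearest to p53KO in all 3 lists. In heat shock genes it was the farthest, at 7.00, 7.75 and 7.79 against 9.00, 8.88 and 9.32. In oxidative phosphorylation, at 7.73, 7.88 and 7.83, and DNA replication, at 5.59, 5.38 and 5.46, it lay closer to replicates 2 and 3. Other lists of division and growth set it apart more: inhibitors of cyclin-dependent kinases were at 4.48, 3.96 and 3.99. Wnt and YAP genes were at 3.24, 2.65 and 2.72. The share of Mir6236, the name of a small RNA, was 9.81% and 10.1% of the summed FPKM of replicates 2 and 3 and at most 1.31% in the other 4 libraries compared. With small RNA and mitochondrial names left out 3378 genes were higher and 3273 lower.

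Did the difference depend on the genotype? The same difference in the p53WT libraries was subtracted from that in p53KO in one limma fit over 12608 genes, and 0 genes (0.0%) were called, with 769 at an unadjusted p under 0.05 and 10 called with array weights. The smallest adjusted p was 0.315. The smallest p-values belonged to Phlda3, Gdf15, Apip, Wdr20 and Ephx1 among genes lower in p53KO and to Pigb, Ptcd3, Slc35d2, Pabpc4 and Sik1 among genes higher in p53KO. The groups without suffix and with 3dai enter both this test and the comparison within p53KO, so the values are given side by side. Cdkn1a differed by -1.38 in p53KO and -0.05 in p53WT, where it stood at 286, 359 and 283 FPKM without suffix and 284, 298 and 310 in 3dai (interaction -1.33, SE 0.41, adjusted p = 0.79). Phlda3, a p53 target that restrains Akt, stood at 15.5, 11.5 and 7.17 FPKM in p53KO and at 18.9, 12.1 and 12.9 in p53KO_3dai, and at 10.5, 12.5 and 15.8 and 76.9, 69.8 and 87.5 in p53WT (interaction -2.15, adjusted p = 0.315). Ccng1 rose in p53KO by 1.17 beside 2.81 in p53WT (interaction adjusted p = 0.505). For the mitotic genes the medians were 4.94 in p53KO and 4.72 in p53WT, for quiescence genes -2.84 and -2.69, and for immediate early genes -3.79 and -3.12. The medians of p53 targets of arrest were -0.44 and 0.55, and of targets of cell death 0.59 and 1.25.

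The interaction changed without p53KO_3dai replicate 1. Without it 148 genes (1.17%) were called, 11 higher (0.0872%) and 137 lower (1.09%) in p53KO. Of the 28 p53 targets of arrest 8 were then called, all lower: Gdf15, Ddit4, Sesn2, Trp53inp1, Plk2, Phlda3, Cdkn1a and Tmem43. Of 15 targets of cell death 3 were lower, Eda2r, Bbc3 and Pmaip1. Phlda3 had an interaction of -2.34, SE 0.36, adjusted p = 0.00455, Sesn2 of -3.70, SE 0.50, adjusted p = 0.00166 and Cdkn1a of -1.82, SE 0.22, adjusted p = 0.000811. Most of the 148 genes were outside the p53 target lists, among them Trib3 (-5.19), Chac1 (-4.65) and Herpud1 (-3.59). Of 8 inhibitors of cyclin-dependent kinases 3 were lower in p53KO, Cdkn1a among them, and of 27 chemokine and cytokine genes 4. Without replicate 1 no mitotic gene was called in the interaction, and of the immediate early genes 6 were lower in p53KO. Hspa1a was higher in p53KO (4.31, SE 0.84, adjusted p = 0.0201), with the same limit on its near copy. Replicate 1 was singled out after its values were seen, and no label sets it apart.

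**Figure D5:**
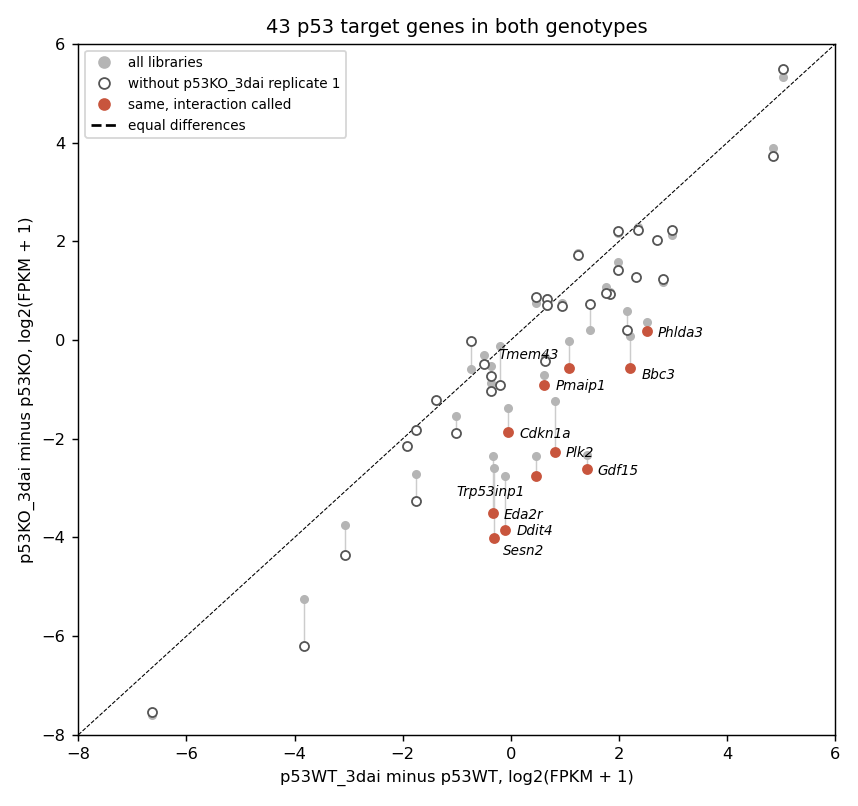
Difference between 3dai and no suffix in p53KO (y) against that in p53WT (x), both in log2(FPKM + 1), for 43 p53 target genes, with all libraries (grey points) and without p53KO_3dai replicate 1 (open or red points, joined by a line to the grey point of the same gene). The dashed line marks equal differences, and the 11 red, named genes, called in the interaction without replicate 1, all lie below it.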

How the data were processed

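RNA of sorted muscle stem cells was measured in 16 libraries of 6 groups. Per the labels' protocols, libraries were prepared from total RNA by NEBNext Ultra II Directional chemistry. Per the submitters' processing notes STAR, Cufflinks and Cuffdiff were used with mm10, and versions of these tools were not given in the sources used here. The values are the FPKM that the authors deposited, 1 value per gene and library, with no read counts and so no depth.

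Each value was put on the log2(FPKM + 1) scale, and a gene was kept where 2 of the libraries compared (6, or 12 for the interaction) had at least 1 FPKM. All 16 libraries were fitted by group with limma 3.58.1 under R 4.3.3, allowing a variance trend and leaving 10 residual degrees of freedom, and p-values were adjusted by Benjamini-Hochberg over all genes kept, with 0.05 as the limit for a call. The fit was also run on simulated data, in which far fewer genes changed than were called here and no library stood apart. That run therefore does not cover these features of the data. Groups come from the sample titles.

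The comparison, the gene lists and the members were chosen with earlier results of these data known. Genes named are Trp53, Dmd, Cdkn1a and markers of the sort and of stem cells, the 12 largest rises and falls without overlap and with a mean of at least 5 FPKM in the higher group, up to 4 rises and 4 falls of each list, uncalled members where there are 5 or fewer, and 5 genes in each direction of the interaction. Results of some genes the rule names are left out here. Genes given with values outside it were chosen after their values were seen, among them Ankrd1, Amotl2, Plk2, Mdm2, Ccng1, Pmaip1, Zmat3, Trp53inp1, Ccnd1, Cdk4, Cdk6, E2f1, Foxm1, Mcm6, Pcna, Plk1, Brca1, Egr1, Junb, Myc, Nr1d1, Utrn, Vcam1, Wnt4, Des, Hspa1a, Igf1, Pkm, Ccl2, B2m and H2-K1. Alternatives were another pseudocount, other filters, 3 other scalings, array weights, fewer libraries, each library left out and a replicate block. Promoter sequences are from RefSeq.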

Additional observations from a re-analysis of the deposited data

How the results depend on the processing

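Of the 204 called genes given with values, 178 kept their call and direction under every alternative run, and 26 lost the call under at least 1. Some of the 26 rest on p53KO_3dai replicates 2 and 3. With replicate 1 alone the log2 differences were -0.61 for Ddit4, -0.26 for Cdkn1b, -0.21 for Ccl2 and -1.01 for Hmox1. Those of Myog and H19 were 2.76 and 1.15. The total of 6889 calls in p53KO_3dai against p53KO stayed within 1.5 times under all alternatives, between 4633 with p53KO_3dai replicate 1 alone and 8108 with array weights. Leaving out 1 library gave 6127 to 6757. Of the calls 57.8% were higher, against 45.6% under median-of-ratios scaling and 50.8% with small RNA and mitochondrial names left out. The labels do not say that a replicate number pairs libraries: deviations from the group means correlated at 0.046, -0.0676 and 0.0233 between same-numbered libraries, and not every library correlated best with its own number. The fit with a replicate block called 3934 genes higher and 2893 lower, and 0 in the interaction.

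The interaction called 0 genes, but 10 with array weights, 1 with a pseudocount of 0.1 FPKM, 1 without the filter on low values, and 0 to 148 when 1 library was left out. Without both p53KO_3dai replicate 1 and p53KO replicate 3 it called 177. The cause was not tested.

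Small medians changed sign. For inhibitors of cyclin-dependent kinases (0.01) the median was -0.07 with a pseudocount of 0.1, -0.46 at a mean of at least 5 FPKM, -0.09 under quantile normalization, -0.24 under median-of-ratios scaling, -0.15 without small RNA and mitochondrial names, -0.18 with array weights, -0.39 to 0.19 without 1 library and -0.31 without both libraries that stand apart. For glycolysis (-0.08) it was 0.94 at a mean of at least 5 FPKM, 0.19 with array weights, -0.07 to 0.14 without 1 library, 0.03 with p53KO_3dai replicate 1 alone and 0.32 without both. Fusion genes (-0.09) were at -0.19 to 0.06 without 1 library and 0.02 without both. With p53KO_3dai replicate 1 alone, p53 targets of arrest (-0.44) were at 0.04 and Wnt and YAP genes (-0.48) at 0.01. Macrophage markers (-1.31) were at 0.02 without the filter, which adds genes near 0, and mature fibre markers (-0.53) at 0.14 at a mean of at least 5 FPKM.

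Among single genes, Sesn2 was at 0.23 with p53KO_3dai replicate 1 alone. The other reversals were of genes not called with all libraries. Plk2 was at 0.84 with replicate 1 alone. Bbc3 was at -0.18 under median-of-ratios scaling, -0.08 without small RNA names, -0.24 with array weights, -0.56 to 0.48 without 1 library and -0.45 without both. Ccnd3 was at 0.16 with array weights, -0.38 to 0.19 without 1 library and 0.27 without both, and Cdkn2b at -0.62 to 1.19 and -0.28. Amotl2 was at 0.30 with replicate 1 alone. Cdh15 was at 0.08 without both and reached -0.63 without p53KO replicate 1. Dnmt3a was at -0.18 to 0.02 without 1 library and 0.00 with replicate 1 alone. Phlda3 was at 0.00 with array weights and -0.09 without both, and at 0.60 without p53KO replicate 1. Rb1 was at -0.09 under quantile normalization, -0.15 under median-of-ratios scaling and -0.04 without small RNA names.

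FPKM carry no depth, so the counting error of low genes is unknown, and 3 libraries a group limit the precision. Falls of genes near 1 FPKM are understated by the pseudocount. The alternatives that leave out 2 libraries or add a block to the libraries compared were chosen after seeing the data.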
